A study of Mus musculus with 10 samples.

Results

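The renin-angiotensin and endothelin systems were described here by 10 genes in the left ventricle (LV) of nAAC and sham mice. The rule took the rows of the deposited gene tables whose gene name was Agt, Ace, Agtr1a, Agtr2, Cma1, Edn1, Edn3, Ednra, Ednrb or Ece1, and found 10 of 55401 genes. The study compared 5 nAAC mice with 5 sham mice at 4 weeks of age, with 1 library of LV RNA per mouse. In nAAC mice the ascending aorta was constricted surgically soon after birth, which loads the LV with pressure, and sham mice had the operation without the constriction. All 10 mice were labelled wild type (WT), and the study bred such mice from heterozygous AHR knockout parents on a C57BL/6 background and left the pups with their nursing mothers. Both sexes were used, and the labels give no sex for single mice. The tissue was the whole LV wall, so that fewer cells of a type and less RNA per cell cannot be told apart in any value below.

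Both systems make small vasoactive peptides from larger precursors. Angiotensinogen, the product of Agt, is cut by renin and then by angiotensin-converting enzyme (Ace) or by mast cell chymases into angiotensin II. Cma1 is the gene of a mast cell chymase. Angiotensin II signals through Gq-coupled type 1 receptors (Agtr1a) and through type 2 receptors (Agtr2). Endothelins, the products of Edn1 and Edn3, are released from their precursors by endothelin-converting enzyme (Ece1) and act on the A-type receptor Ednra, which is best known for contracting smooth muscle and for growth of cardiomyocytes, and on the B-type receptor Ednrb, which is also present on endothelial cells and binds both ligands equally well. In the heart both peptides are known as stimuli of cardiomyocyte growth and of fibroblast activity.

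Values are FPKM, the number of fragments normalized for the length of the gene and the depth of the library, as deposited, so that levels of different genes are given per length. Differences are log2 FCs of FPKM + 1, nAAC over sham, with their standard error (SE) and the Benjamini-Hochberg adjusted p of limma over all genes tested, which were the 11867 genes that averaged 1 FPKM or more over the 10 libraries. A gene rose or fell if its adjusted p was below 0.05, and it was a DEG if its absolute log2 FC was also above 1. This scale understates changes of genes with low values. The estimated depth was 4.86 to 6.82 gigabases of aligned sequence per library, the mitochondrial share of TPM (a unit that sums to the same total in each library) was 32.8% to 49.8%, and 11182 to 12455 genes reached an FPKM of 1. Sham replicate 4 had the lowest mitochondrial share of its group, at 33.7%, and main results are also given without it. Sham replicate 5 was next, at 38.3%, against 46.5% to 49.8% in the remaining sham libraries. Leaving out replicate 4 alone therefore does not remove this split of the sham libraries. The median log2 FC of all genes was 0.22, and after median-ratio scaling, which brings the typical gene of each library to the same level, it was close to 0. The 10 cardiomyocyte markers summed to at least 18991 FPKM in every library, and the atrial markers to 14.3 to 250.5 FPKM in nAAC mice and 4.37 to 49.4 in sham mice.

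The bases in front of Edn3, Ace and Agt are printed because Edn3 and Ace had the largest differences of the 10 genes and because Agt is the only source of angiotensin. Each is the 250 bases before a RefSeq gene start of GRCm38.p6, written on the strand of the gene. Capitals mark matches to any of 5 motifs. The TATA box was searched as TATAAA on the strand of the gene only, and the others on both strands. The motif of the GATA factors, which drive genes of the heart and of endothelial cells, was searched as AGATAA. The motif of AP-1, the Fos and Jun dimer, was searched as TGANTCA. The core to which the aryl hydrocarbon receptor AHR binds was searched as GCGTG. The GC box, the binding motif of Sp1, was searched as GGGCGG after the others had been searched, and its matches may overlap each other.
Edn3, chr2:174760369-174760618, plus strand: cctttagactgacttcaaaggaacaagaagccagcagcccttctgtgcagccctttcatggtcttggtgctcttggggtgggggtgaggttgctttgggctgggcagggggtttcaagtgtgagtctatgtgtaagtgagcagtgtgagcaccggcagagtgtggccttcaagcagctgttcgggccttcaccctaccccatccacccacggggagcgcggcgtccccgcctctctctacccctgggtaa
Ace, chr11:105967698-105967947, plus strand: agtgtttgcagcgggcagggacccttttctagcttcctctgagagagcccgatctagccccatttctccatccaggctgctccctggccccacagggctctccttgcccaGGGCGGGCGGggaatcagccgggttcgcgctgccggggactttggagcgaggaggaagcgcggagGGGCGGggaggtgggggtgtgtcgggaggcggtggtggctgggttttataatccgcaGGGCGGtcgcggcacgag
Agt, chr8:124569707-124569956, minus strand: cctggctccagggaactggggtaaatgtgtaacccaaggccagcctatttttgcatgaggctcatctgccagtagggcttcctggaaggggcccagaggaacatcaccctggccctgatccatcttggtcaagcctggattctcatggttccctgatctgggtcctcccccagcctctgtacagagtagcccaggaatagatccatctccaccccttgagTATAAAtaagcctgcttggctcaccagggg
The window of Ace held 4 GC boxes, and that of Agt held a TATA box with its first base at position -30 from the start. No match to any of the motifs was present in the window of Edn3. Among all 32851 windows of the same length, 32.7% held a GC box, 7.59% a TATA box, 28.2% the AHR core, 9.99% the GATA motif and 6.75% the AP-1 motif. Ace has a further RefSeq start inside the gene, with a window from 105974939 to 105975188, which held none of the motifs. Sequences were found for 9 of the 10 genes, all but Agtr1a, in 13 windows, and no window of the 9 held the AP-1 or the GATA motif. The AHR core was present in windows of Ece1 and in the window of Ednrb, and in no window of another of the 9 genes.

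Of the 10 genes, 8 entered the limma test, and 4 of the 8 rose, 1 fell and 3 did not pass. Over all genes tested 27.1% rose, 4.6% fell and 31.7% passed in either direction. Without sham replicate 4 the counts were also 4 and 1. Edn3 and Ace were up-regulated DEGs, against 5.01% of all genes tested, and none of the 8 was a down-regulated DEG, against 0.893%. Edn3 reached the expression limit only through its values in nAAC mice and so had to differ, and these counts are a description. The groups did not overlap in 4 of the 8, namely Ace, Agtr1a, Edn1 and Edn3, against 22.3% of all genes tested. Agtr2 and Cma1 lay below the limit. The median log2 FC of the 8 was 0.61, against 0.22 for all genes tested.

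**Figure D1:**
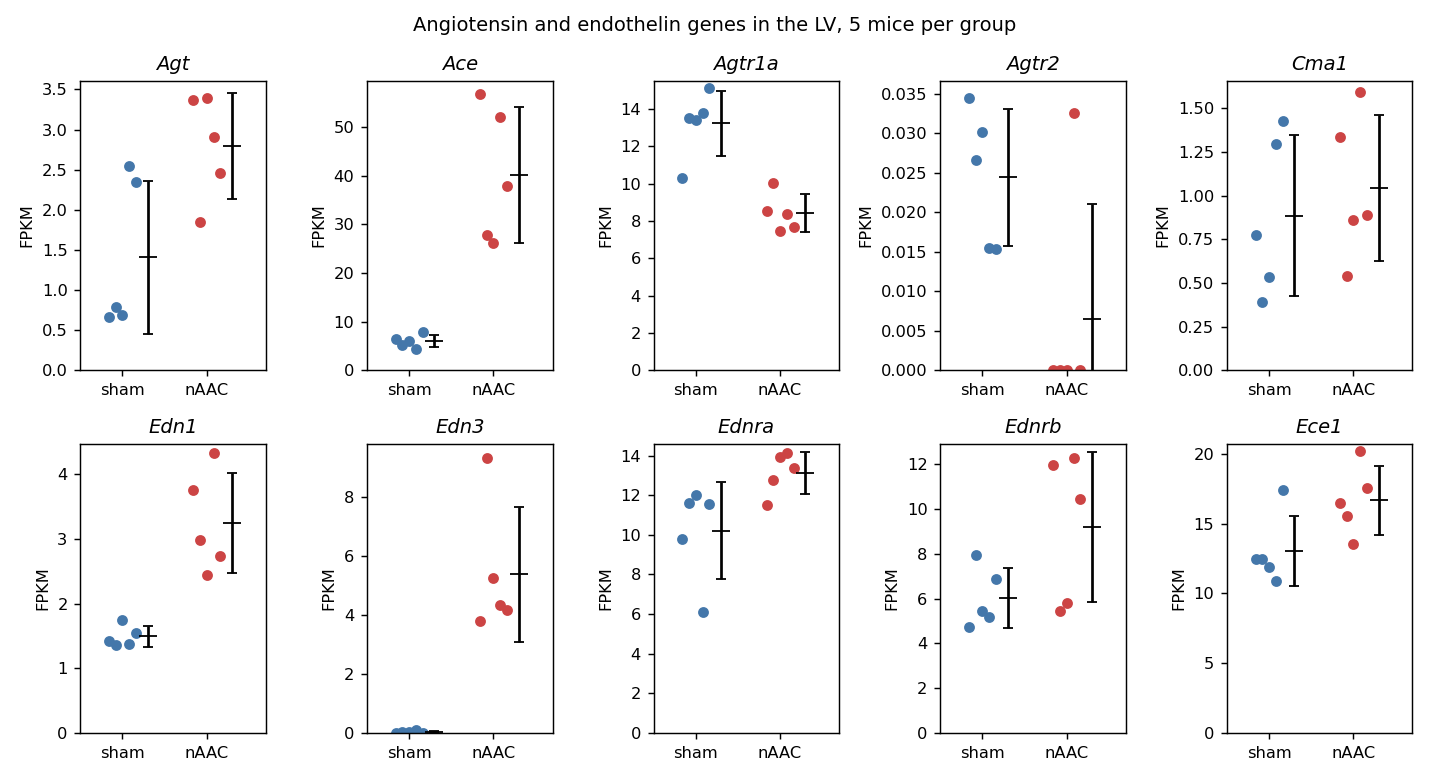
FPKM of the 10 angiotensin and endothelin genes, with 1 point per mouse (5 sham mice in blue, 5 nAAC mice in red), a separate axis from 0 for each gene, and the mean and SD in black. The SD bar of Agtr2 in nAAC mice is cut at 0. The groups do not overlap for Ace, Agtr1a, Edn1 and Edn3, and Edn3 is near 0 in all sham mice.

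The precursor gene Agt (ENSMUSG00000031980; chromosome 8 of GRCm38, 124556534 to 124569706, minus strand) was higher in nAAC mice, with groups that overlapped. Its FPKM was 3.37, 1.85, 3.40, 2.91 and 2.46 in nAAC replicates 1 to 5 and 0.658, 0.792, 0.685, 2.55 and 2.35 in sham replicates 1 to 5. Sham replicates 4 and 5 lay above nAAC replicate 2, whereas the other 3 sham mice were well below every nAAC mouse. The mean was 2.80 ± 0.658 (SD, n = 5) in nAAC and 1.41 ± 0.955 (SD, n = 5) in sham mice. Limma put the log2 FC at 0.73 (SE 0.23, limma adjusted p = 0.0297), and the exact permutation test (two-sided, of FPKM) gave p = 0.048.

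The level of Agt differed between mice with and almost without Xist, the RNA of the inactive X chromosome. Xist was at most 0.0232 FPKM in nAAC replicate 2 and sham replicates 1, 2 and 3, which had the lowest Agt of their groups and in which the Y-linked gene Ddx3y was 10.4 to 16.3 FPKM. In the other 4 nAAC mice Xist was 14.8 to 17.9 FPKM, and it was 3.70 and 10.6 in sham replicates 4 and 5, with Ddx3y listed at 0 in all 6. With Xist as a covariate the log2 FC of Agt between nAAC and sham fell to 0.28 (SE 0.19, limma adjusted p = 0.338). The slope on log2 Xist was 0.21 per unit (unadjusted p = 0.00112, limma adjusted p = 0.299), and 4 of 11867 genes passed the adjusted test of that slope. The groups were thus unbalanced in Xist, which was present in 4 nAAC mice but among sham mice only in replicates 4 and 5. This applies to every comparison of the groups. With Xist as a covariate 1983 of all genes tested were called, in place of 3757. No sex was assigned to any mouse here. The sham mice split in the same way in their mitochondrial share of TPM. It was 46.5% to 49.8% in sham replicates 1 to 3 and 33.7% and 38.3% in replicates 4 and 5. In sham mice Xist and this share therefore cannot be told apart. Without sham replicate 4 the log2 FC was 0.89 (limma adjusted p = 0.00673). The call was also lost after median-ratio scaling, where the log2 FC was 0.56 (limma adjusted p = 0.0796), after correction for GC content and transcript length, at 0.36 (limma adjusted p = 0.123), after upper-quartile scaling and without a filter on low values (limma adjusted p = 0.0649 and 0.0977), and in 6 of the 10 fits that left out a mouse, namely any of nAAC replicates 1, 3 and 4 or sham replicates 1, 2 and 3. Among the 4 libraries with almost no Xist the nAAC mouse was above all 3 sham mice, and among the other 6 the lowest nAAC mouse, at 2.46, lay between both sham mice.

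**Figure D2:**
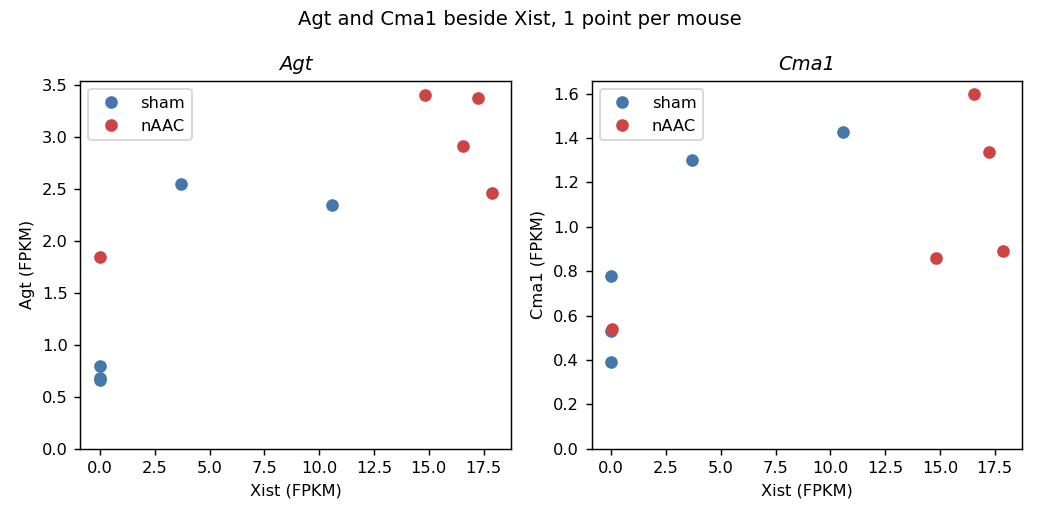
FPKM of Agt (left) and Cma1 (right) on the vertical axis against FPKM of Xist on the horizontal axis, with 1 point per mouse, sham in blue and nAAC in red. The 3 sham mice near 0 for Xist have the lowest Agt, at 0.658 to 0.792 FPKM, and the nAAC mouse near 0 for Xist has the lowest Agt of the nAAC mice, at 1.85.

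Renin itself, the product of Ren1 that opens the cascade, was listed at 0 in all 10 libraries. The (pro)renin receptor gene Atp6ap2 was 8.66 ± 1.22 FPKM (SD, n = 5) in nAAC and 7.17 ± 1.13 (SD, n = 5) in sham mice and did not pass (log2 FC 0.24, limma adjusted p = 0.171).

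Ace (ENSMUSG00000020681; chromosome 11, 105967945 to 105989964, plus strand), which forms angiotensin II and also breaks down bradykinin, had the largest difference in FPKM of the 10 genes. It was 56.8, 27.8, 26.2, 52.1 and 37.8 FPKM in nAAC replicates 1 to 5 and 6.34, 5.28, 6.03, 4.43 and 7.89 in sham replicates 1 to 5. The lowest nAAC mouse was more than 3 times the highest sham mouse. The mean was 40.1 ± 13.9 (SD, n = 5) against 5.995 ± 1.29 (SD, n = 5), a 6.70-fold ratio of mean FPKM. Limma gave a log2 FC of 2.51 (SE 0.22, limma adjusted p = 3.22e-06), or 2.42 without sham replicate 4, and the exact permutation p was 0.0079, the smallest that 5 against 5 allow. Over all alternatives it stayed between 2.08 and 2.73. A gene on the other strand that overlaps Ace, Gm11651, was at most 0.0194 FPKM.

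Ace is known as an enzyme of the endothelial surface, and it is also made by fibroblasts of scarred myocardium. The 10 endothelial markers summed to 263.8 to 423.3 FPKM in nAAC and 227.2 to 347.7 in sham mice, with 2 of 10 that rose and 8 that did not pass, against 27.1% of all genes tested that rose. The 9 fibroblast markers summed to 631.0 to 1131.7 FPKM in nAAC and 400.3 to 433.0 in sham mice. Of these 7 rose, against the same 27.1%, but unevenly. Postn, Mfap5, Col1a1 and Col1a2 were DEGs, with ratios of mean FPKM of 14.9, 6.1, 4.54 and 4.23. Tcf21, Lum and Dcn rose less, with ratios of 1.94, 1.65 and 1.42. With Xist as a covariate the calls of Lum and Dcn were lost, with limma adjusted p of 0.134 and 0.29. The call of Tcf21 was kept. Pdgfra and Dpt did not pass, with ratios of 1.24 and 1.26 (limma adjusted p = 0.24 and 0.202). No endothelial or fibroblast marker was at 0 in every library. Their part in the difference of Ace was not tested.

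Cma1 (ENSMUSG00000022225; chromosome 14, 55941451 to 55944675, minus strand), the gene of a mast cell chymase, was low in both groups. It was 1.33, 0.540, 0.858, 1.60 and 0.892 FPKM in nAAC replicates 1 to 5 and 0.777, 0.392, 0.532, 1.30 and 1.43 in sham replicates 1 to 5. The groups covered almost the same range, and the log2 FC was 0.13 (SE 0.20, limma adjusted p = 0.703). As a gene below the expression limit it was tested in the fit without a filter on low values, over 29309 genes, of which 13.8% passed in either direction. Sham replicates 4 and 5 were again the highest sham mice, and with Xist as a covariate the log2 FC was -0.20 (limma adjusted p = 0.571). The 7 mast cell markers summed to 3.66 to 7.49 FPKM in nAAC and 3.36 to 6.18 in sham mice, and neither of the 2 that entered the test passed. Of the defining markers, Ms4a2 was listed at 0 in every sham mouse and was at most 0.0708 FPKM in nAAC mice.

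Among 16 other genes that form or break down angiotensins, 12 were tested, 6 rose, none fell and 6 did not pass in limma, against 27.1% that rose and 4.6% that fell of all genes tested. Their median log2 FC was 0.38, against 0.22 for all genes. The largest of the rises was that of Dpp3, a cytosolic dipeptidyl peptidase that degrades angiotensin II, at 9.84 ± 0.777 FPKM in nAAC and 4.52 ± 1.26 in sham mice (SD, n = 5 each; log2 FC 0.998, SE 0.14, limma adjusted p = 2.21e-04), just short of a DEG. The lysosomal proteases Ctsa and Ctsd and the peptidases Prep, Nln and Thop1 also rose, with log2 FCs from 0.40 for Nln to 0.74 for Ctsa. With Xist as a covariate the calls of Ctsd, Nln and Thop1 were lost, with limma adjusted p of 0.119, 0.109 and 0.239. The aminopeptidase genes Enpep, Anpep, Lnpep and Rnpep, and Prcp, did not pass, with log2 FCs from -0.24 to 0.36. Mme, the gene of neprilysin, which breaks down angiotensins, endothelins and natriuretic peptides, is named after its values were seen. It lay below the expression limit, at 0.093 to 0.576 FPKM in nAAC and 0.614 to 1.46 in sham mice, and it fell in the fit without a filter (log2 FC -0.73, limma adjusted p = 0.00867). That call was lost with the replicate block and with Xist as a covariate, where the adjusted p was 0.071 and 0.0719.

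Agtr1a (ENSMUSG00000049115; chromosome 13, 30336441 to 30382867, plus strand), the type 1 angiotensin II receptor, was the only one of the 8 tested genes that fell. It was 8.53, 10.04, 7.47, 8.39 and 7.70 FPKM in nAAC replicates 1 to 5 and 10.3, 13.5, 13.4, 13.8 and 15.1 in sham replicates 1 to 5. Every nAAC mouse lay below every sham mouse, by a narrow margin between nAAC replicate 2 and sham replicate 1. The mean was 8.43 ± 1.01 (SD, n = 5) against 13.2 ± 1.76 (SD, n = 5), 0.638 times the sham level. Its log2 FC was -0.59 (SE 0.12, limma adjusted p = 0.00295; exact permutation p = 0.0079) and -0.57 without sham replicate 4. After median-ratio scaling it was -0.84 (limma adjusted p = 1.41e-04), since the typical gene was higher in nAAC mice, and it stayed a decrease past the test in all 21 alternatives. Gm48161, which overlaps Agtr1a on the same strand, was at most 0.157 FPKM. Fibroblasts and mural cells are known to express Agtr1a. The 9 mural cell markers summed to 306.8 to 437.7 FPKM in nAAC and 202.9 to 339.1 in sham mice. Of these 6 rose, against 27.1% of all genes tested, among them the smooth muscle genes Tagln, Myh11 and Acta2 with log2 FCs of 1.54, 1.25 and 0.85. The pericyte genes Rgs5, Kcnj8 and Abcc9 did not pass, with ratios of mean FPKM of 0.996, 1.01 and 0.662 (limma adjusted p = 0.994, 0.992 and 0.0825). Pdgfrb and Cspg4, also pericyte genes, and the mural gene Notch3 rose, with log2 FCs of 0.69, 1.24 and 0.81 (limma adjusted p = 0.00625, 1.02e-05 and 0.00648). The pericyte genes thus did not move together. The part of these cell types in the difference of Agtr1a was not tested.

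The other angiotensin receptors were close to 0. Agtr2 (ENSMUSG00000068122; chromosome X, 21484544 to 21489164, plus strand) was listed at 0 in 4 nAAC mice and at 0.0326 FPKM in nAAC replicate 4, and it was 0.0154 to 0.0345 FPKM in sham mice. Agtr1b, a close copy of Agtr1a that can share its reads, was at most 0.0179 FPKM, and the Mas1 receptor was 0.047 to 0.108 FPKM in nAAC and 0.049 to 0.321 in sham mice. At these levels no fold was given. The log2 ratio of 2 genes within a library, taken after adding 0.1 to each FPKM, does not depend on scaling between libraries. That of Agtr1a to Agtr2 was 6.33 in nAAC and 6.73 in sham mice (difference -0.41, two-sided exact permutation test, p = 0.048), but with Agtr2 below the added 0.1 it followed Agtr1a, and with 0.01 added the difference was 0.68. Agtrap, which binds the type 1 receptor and promotes its internalization, rose with a log2 FC of 0.37 (SE 0.12, limma adjusted p = 0.0361), a call lost after median-ratio scaling at 0.12 (limma adjusted p = 0.456). Nr3c2, the mineralocorticoid receptor on which aldosterone acts downstream of angiotensin II, was 1.86 ± 0.494 FPKM in nAAC and 2.93 ± 0.405 in sham mice and fell (SD, n = 5 each; log2 FC -0.47, limma adjusted p = 0.0171), with groups that did not overlap. That call was lost with TPM and with Xist as a covariate, where the adjusted p was 0.0659 and 0.0627.

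Edn3 (ENSMUSG00000027524; chromosome 2, 174760619 to 174784042, plus strand), the endothelin best known for the development of neural crest cells, was near 0 in sham mice and present in every nAAC mouse. It was 3.77, 9.33, 5.26, 4.35 and 4.15 FPKM in nAAC replicates 1 to 5. In sham replicates 1 to 5 it was listed at 0, 0.035, 0.0159, 0.101 and 0 FPKM. The highest sham value was that of replicate 4, and the lowest nAAC value was more than 30 times as high. Limma gave a log2 FC of 2.57 (SE 0.18, limma adjusted p = 5.81e-07; exact permutation p = 0.0079), 2.59 without sham replicate 4 and 2.44 after median-ratio scaling. Edn3 entered that fit only through its values in nAAC mice. In the fit without a filter on low values the log2 FC was the same (SE 0.19, limma adjusted p = 4.91e-05). No ratio of means is given against sham values so close to 0.

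The level of Edn3 depended on how it was measured. Its FPKM was 3.93 to 3.98 times its depth-scaled coverage, which is the mean read depth over the gene put on the scale of FPKM by 1 factor per library. For the other 9 genes the same factor was between 1.0 and 1.52. In depth-scaled coverage, a measure added after the data were seen, Edn3 was 0.948, 2.36, 1.32, 1.10 and 1.05 in nAAC replicates 1 to 5 and at most 0.0258 in sham mice. As the factor was nearly the same in all libraries that listed Edn3, ratios between mice were nearly the same on both scales. The log2 FC, however, depends on the constant added to values near 0. It was 1.20 for depth-scaled coverage + 1 (SE 0.12, limma adjusted p = 2.06e-05), and 5.36 for FPKM with a pseudocount of 0.1 (SE 0.31, limma adjusted p = 2.2e-07).

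Edn1 (ENSMUSG00000021367; chromosome 13, 42301476 to 42307990, plus strand), the main endothelin of endothelial cells and a stimulus of cardiomyocyte growth, rose about as much as Agt but without overlap. It was 3.75, 2.99, 2.44, 4.32 and 2.74 FPKM in nAAC replicates 1 to 5 and 1.42, 1.37, 1.75, 1.37 and 1.55 in sham replicates 1 to 5. The sham mice lay within a narrow band, and every nAAC mouse was above it. The mean was 3.25 ± 0.771 (SD, n = 5) against 1.49 ± 0.163 (SD, n = 5), a 2.18-fold ratio of mean FPKM. The log2 FC was 0.75 (SE 0.13, limma adjusted p = 7.23e-04; exact permutation p = 0.0079), and it stayed past the test in all 21 alternatives, at 0.74 without sham replicate 4 and 0.56 after median-ratio scaling. Gm47118, which overlaps Edn1 on the other strand, was at most 0.280 FPKM.

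Which endothelin ranked first in nAAC mice depended on the measure. By FPKM Edn3 was above Edn1 in 5 of 5 nAAC mice, in replicate 1 by a trace (3.77 against 3.75). In depth-scaled coverage it was above Edn1 in 0 of 5. In sham mice Edn1 was far above Edn3 on both scales. Edn2, the remaining endothelin gene, was at most 0.0342 FPKM in nAAC mice and listed at 0 in all sham mice.

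Ece1 (ENSMUSG00000057530; chromosome 4, 137862237 to 137965229, plus strand), the enzyme that releases mature endothelins, was abundant in both groups and did not pass. It was 16.5, 15.5, 13.6, 20.3 and 17.6 FPKM in nAAC replicates 1 to 5 and 12.5, 12.5, 11.9, 10.9 and 17.4 in sham replicates 1 to 5. Only sham replicate 5 reached into the nAAC range, and the other 4 sham mice were below every nAAC mouse. Its log2 FC was 0.34 (SE 0.14, limma adjusted p = 0.0874), 0.44 without sham replicate 5 (limma adjusted p = 0.0186) and 0.08 after median-ratio scaling (limma adjusted p = 0.696). With TPM it was 0.51 and passed (limma adjusted p = 0.0298). It turned to -0.07 once GC content and transcript length were corrected for. Its relative Ece2 was 0.0136 to 0.544 FPKM in nAAC and at most 0.0672 in sham mice, and its log2 FC of 0.34 (limma adjusted p = 0.0388, without a filter on low values) did not pass in 14 of 20 alternatives.

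Ednra (ENSMUSG00000031616; chromosome 8, 77663031 to 77724464, minus strand), the A-type receptor, did not pass the test. It was 11.5, 12.8, 13.9, 14.1 and 13.4 FPKM in nAAC replicates 1 to 5 and 9.80, 11.6, 12.0, 6.11 and 11.5 in sham replicates 1 to 5. The groups met at about 12 FPKM, and sham replicate 4 was far below the other sham mice. Limma gave a log2 FC of 0.36 (SE 0.16, limma adjusted p = 0.0995; exact permutation p of the FPKM = 0.032). It was 0.21 without sham replicate 4 (limma adjusted p = 0.126) and 0.11 after median-ratio scaling (limma adjusted p = 0.704). With TPM it was 0.54 and passed (limma adjusted p = 0.0255). The gene 4933431K23Rik overlaps Ednra on the other strand and was at most 1.85 FPKM. As no source used here says whether strand was used, reads of the shared part cannot be told apart.

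Ednrb (ENSMUSG00000022122; chromosome 14, 103814625 to 103844402, minus strand), the B-type receptor, varied more among nAAC mice than Ednra or Agtr1a. It was 12.0, 5.46, 5.80, 12.3 and 10.4 FPKM in nAAC replicates 1 to 5 and 4.74, 7.94, 5.43, 5.19 and 6.85 in sham replicates 1 to 5. Replicates 2 and 3 of the nAAC mice lay within the sham range, and the other 3 were above it. The log2 FC was 0.49 (SE 0.22, limma adjusted p = 0.108). It was 0.63 without nAAC replicate 2 (limma adjusted p = 0.0395), 0.66 with TPM (limma adjusted p = 0.0421) and 0.24 after median-ratio scaling (limma adjusted p = 0.454). The same 2 nAAC mice also had the lowest Ace and the highest Edn3, at 9.33 and 5.26 FPKM against 3.77 to 4.35. These 2 mice also stood apart in some, but not all, of the atrial and endothelial markers. The atrial gene Myl7 was 53.98 and 79.8 FPKM in them, against 0.654 to 11.9 in the other 3 nAAC mice and 1.16 to 22.3 in sham mice. Myl4 and Sln were also highest in these mice. Dkk3 did not set them apart, at 17.5 and 23.5 FPKM against 12.3 to 22.2, and Bmp10 was listed at 0 in every nAAC mouse. The endothelial gene Pecam1 was 42.0 and 43.3 FPKM in them, against 57.3 to 75.4 in the other 3 nAAC mice, and Cdh5 was 36.9 and 35.1 against 47.5 to 69.8. Kdr, Tie1, Tek, Esam and Robo4 were also lowest in these mice. Egfl7, Emcn and Cldn5 did not set them apart, with Egfl7 at 65.0 and 81.8 FPKM against 53.0 to 85.8. The part of these markers in the values of Ednrb, Ace and Edn3 was not tested. The log2 ratio of Ednra to Ednrb was 0.59 ± 0.601 in nAAC and 0.74 ± 0.365 in sham mice (SD, n = 5 each), a difference of -0.15 (two-sided exact permutation test, p = 0.63). The 5 glial markers, which mark another cell type that makes Ednrb, summed to 2.71 to 3.63 FPKM in nAAC and 1.96 to 3.77 in sham mice, and neither of the 2 tested passed.

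**Figure D3:**
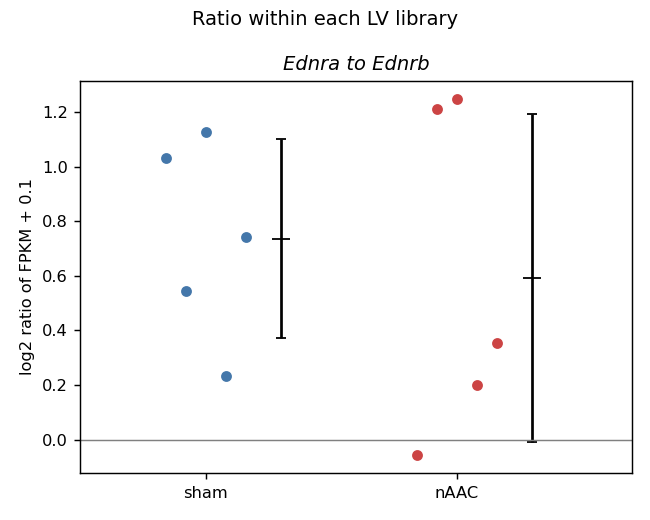
Log2 ratio of Ednra to Ednrb within each library (vertical axis), after adding 0.1 to each FPKM, for 5 sham mice (blue) and 5 nAAC mice (red), with the mean and SD in black. The groups overlap, with means of 0.59 in nAAC and 0.74 in sham mice.

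**Figure D4:**
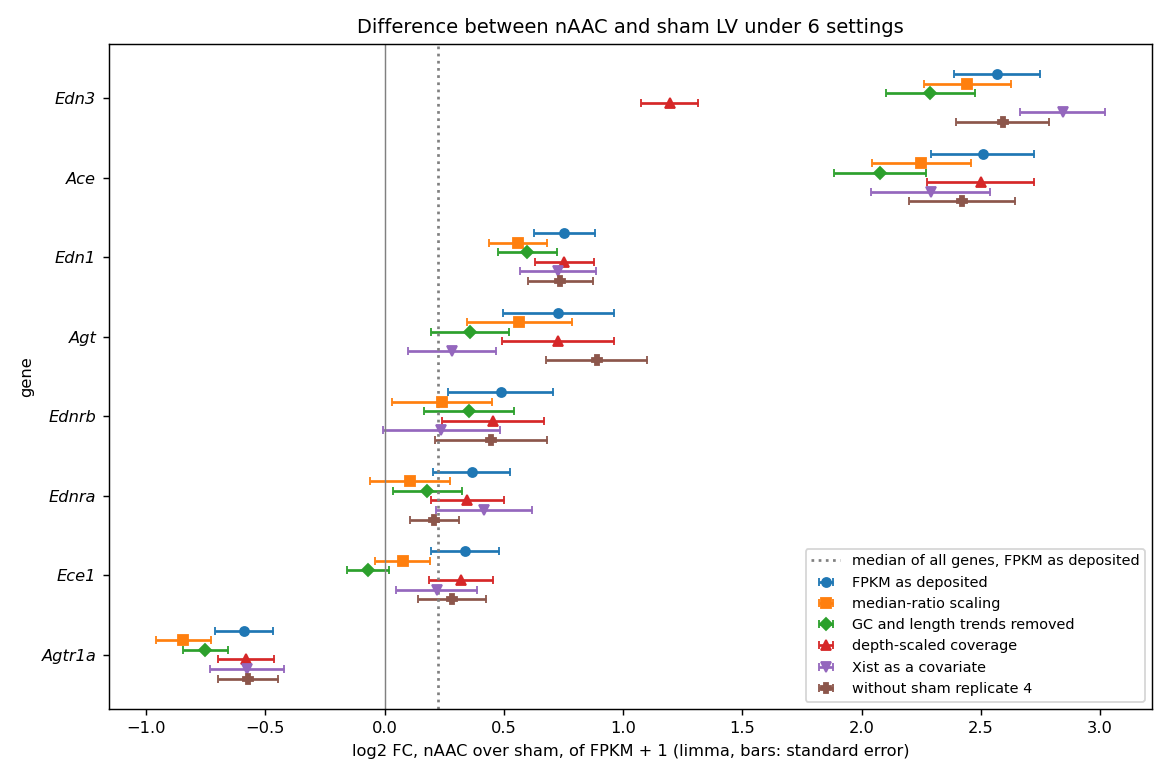
Log2 FC (nAAC over sham, of FPKM + 1, or of depth-scaled coverage + 1 for the red triangles) with its standard error from limma for the 8 tested genes under 6 settings, with a dotted line at the median of all genes, 0.22. Edn3 and Ace stay far above the median in every setting, Edn1 stays above it and Agtr1a below 0, whereas Ece1, Ednra and Ednrb lie between -0.07 and 0.49.

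The order of the levels by FPKM changed between the groups. In sham mice the mean FPKM ran from Agtr1a at 13.2 and Ece1 at 13.1 through Ednra at 10.2, Ednrb at 6.03 and Ace at 5.995 to Edn1 at 1.49, Agt at 1.41 and Cma1 at 0.886, with Edn3 at 0.0305 and Agtr2 at 0.0245 last. Neighbors in this order overlapped, except Ace above Edn1 and Cma1 above Edn3. In nAAC mice it ran from Ace at 40.1 through Ece1 at 16.7, Ednra at 13.1, Ednrb at 9.19, Agtr1a at 8.43, Edn3 at 5.37, Edn1 at 3.25 and Agt at 2.80 to Cma1 at 1.04 and Agtr2 at 0.0065. There the neighbors overlapped except Ace above Ece1, Agt above Cma1 and Cma1 above Agtr2. In sham mice Agtr1a was above Ece1 in 3 of 5 mice by FPKM. In depth-scaled coverage the sham values were 7.89 to 11.4 for Agtr1a and 9.24 to 14.5 for Ece1, so that their order was not settled. Other places in the order also depended on the measure. In depth-scaled coverage Ednra was 4.04 to 7.93 and Ednrb 4.38 to 7.18 in sham mice. On that scale Edn3 was 0.948 to 2.36 and Agt 1.85 to 3.40 in nAAC mice.

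Among 14 genes of Gq coupling and receptor desensitization, all of which were tested, 7 rose, 1 fell and 6 did not pass, against 27.1% that rose and 4.6% that fell of all genes tested. Their median log2 FC was 0.35, against 0.22 for all genes. The decrease was that of Rgs2, which shortens Gq signals of the angiotensin and endothelin receptors by speeding up GTP hydrolysis. It was 3.54 to 4.40 FPKM in nAAC and 8.14 to 23.4 FPKM in sham mice, and the narrow nAAC values lay below every sham mouse. The log2 FC was -1.58 (SE 0.22, limma adjusted p = 1.61e-04), which made it the only DEG among the tested genes of these pathway lists outside the 10, and it stayed between -1.82 and -1.39 in all alternatives. The largest of the rises was that of Grk5, a kinase that phosphorylates active receptors, from 4.94 ± 0.659 to 9.79 ± 1.10 FPKM (SD, n = 5 each; log2 FC 0.86, SE 0.11, limma adjusted p = 1.11e-04). The arrestin genes Arrb1 and Arrb2, the protein kinase C gene Prkca, the G protein genes Gna11 and Gna12 and the phospholipase gene Plcb3 also rose, with log2 FCs from 0.43 to 0.79. With Xist as a covariate the calls of Arrb2, Gna11, Gna12 and Plcb3 were lost, with limma adjusted p of 0.182, 0.232, 0.37 and 0.297. Gnaq itself was 5.38 ± 0.999 FPKM in nAAC and 4.30 ± 1.07 in sham mice (SD, n = 5 each) and did not pass (log2 FC 0.28, limma adjusted p = 0.196). None of the 4 other endothelin genes and the 6 kinin genes reached the expression limit, and the bradykinin receptor Bdkrb2 was 0.251 ± 0.096 FPKM in nAAC and 0.130 ± 0.052 in sham mice (SD, n = 5 each; log2 FC 0.15, limma adjusted p = 0.124 without a filter).

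**Figure D5:**
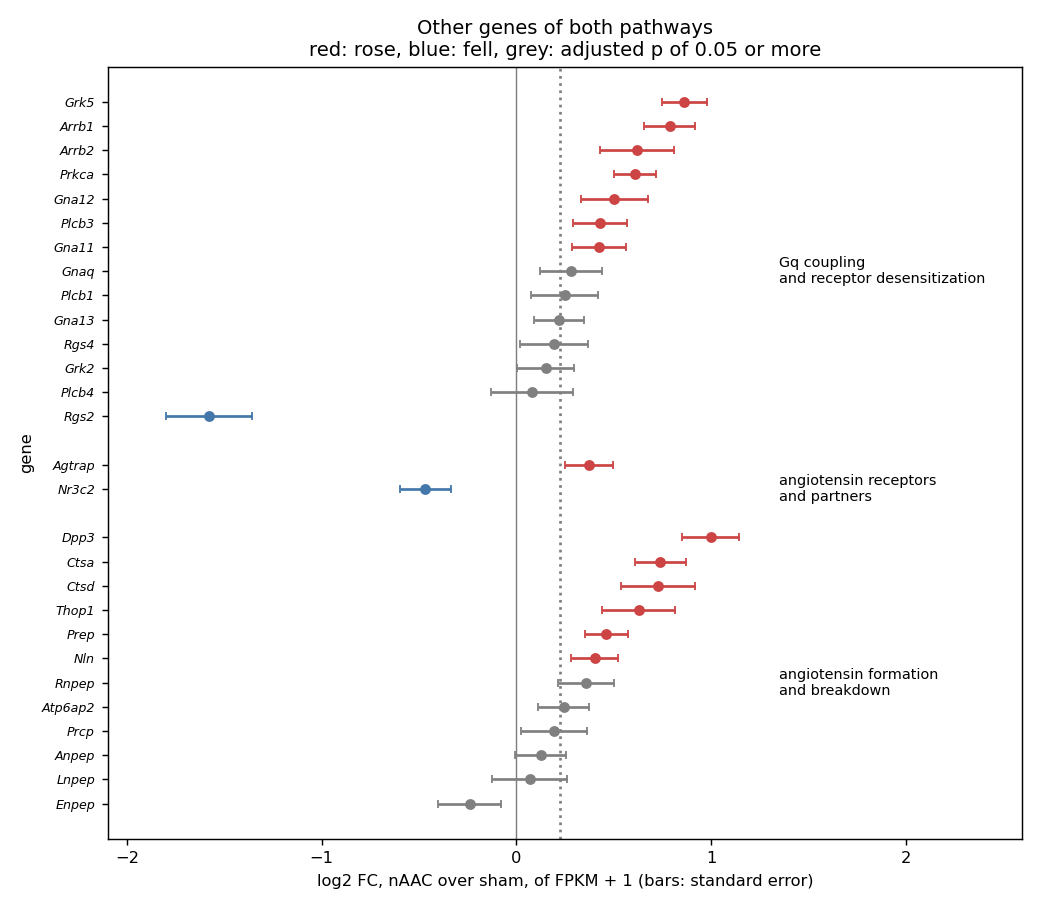
Log2 FC (nAAC over sham, of FPKM + 1) with its standard error for tested genes of the pathways outside the 10, by list, in red if they rose, blue if they fell and grey if the limma adjusted p was 0.05 or more, with a dotted line at the median of all genes, 0.22. Rgs2 lies at -1.58, and Dpp3 and Grk5 lead the genes that rose.

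The genes whose values went up and down most like those of each gene within the groups were found by Pearson's r of log2 values over the 10 mice after each group was centered on its mean, among 11866 genes. These values share libraries, are given as a description, and were the highest of many. For Ace they were Gm21451, Fbln2 and Ldlrad4 (r from 0.946 to 0.947). For Agt they were Cldn15, Grrp1 and Gm3222 (0.947 to 0.951). For Agtr1a they were Pex3, Supv3l1 and Clk4 (0.915 to 0.931). For Edn1 they were Aldh1a1, Pdk4 and Tcp11l2 (0.909 to 0.926). For Edn3 they were Hmgn2, Wdr12 and Gm10154 (0.882 to 0.949). For Ednra they were Srr, Lpgat1 and Kif1b (0.970 to 0.982). For Ednrb they were Gnai1, Tmod3 and Lipa (0.967 to 0.978). For Ece1, Ctdsp2 (0.976) and Gpr153 (0.969) were among the nearest 3. None of the 8 genes was among the nearest 3 of another.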

How the data were processed

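RNA of the LV was sequenced from 5 nAAC and 5 sham mice, 1 library per mouse, and groups and replicate numbers were taken from the sample titles. The authors deposited for each mouse a gene table with 3 measured columns. The deposited coverage is a mean read depth (signal) per gene, the deposited FPKM is normalized by the authors for length and depth, and the deposited TPM is rescaled by the authors to the same total per library. The build is mm10 per the submitters' processing notes, and 99.4% of gene coordinates matched GENCODE M21. The layout is that of StringTie; aligner, quantifier, version and use of strand are not given in the sources used here. Read numbers are unknown, so depth is an estimate, from the commonest factor between the columns of FPKM and coverage, and the precision of each value is that of the 5 mice of a group, which limits it.

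Rows sharing a gene ID were summed. Groups were compared with limma (version 3.58.1, R version 4.3.3), whose moderated test used a trend of variance on level and no covariate. Values were log2(FPKM + 1) of genes that averaged 1 FPKM or more, with Benjamini-Hochberg adjustment over all of them. Genes below were tested without that filter. Single genes and ratios were compared by two-sided exact permutation tests, with every regrouping of the 10 mice enumerated (SciPy 1.17.1), whose smallest p is 0.0079. The members and gene lists were chosen with earlier results of these data known. Genes named are the 10 members, Ren1, Agtr1b, Mas1, Edn2, Ece2, every DEG and the largest rise and fall of each pathway list, and the 3 genes nearest to each tested member. The other genes named from these lists, such as Mme, Bdkrb2, Atp6ap2 and Gnaq, were chosen after their values were seen. The test was also run on simulated data, drawn independently for each gene and mouse and so without differences shared by a whole library. The outcome of that run is not given here. No source used here says that the replicate numbers pair the mice, and the main fit does not use them as pairs. Some results of these rules are not reported here.

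The alternatives tried were TPM, scaling by median ratio or upper quartile, rescaling without mitochondrial genes, no filter or a mean FPKM of at least 0.1, a pseudocount of 0.1, the replicate block, Xist as a covariate, loess removal of trends on GC content and transcript length (available for 99.9% of tested genes), an adjusted p below 0.01, other pseudocounts for the ratios, and leaving out each mouse. Depth-scaled coverage was added after the data were seen. Promoter windows came from RefSeq (GRCm38.p6).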

Additional observations from a re-analysis of the deposited data

Results flagged for a closer look

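Single mice were compared with their group by Dixon's ratio, in which the distance from the highest or lowest mouse to the next is set against the whole spread. The ratio passed 0.71, the limit for 5 values, in 3 of 42 groups of log2(FPKM + 1) or log2 ratios, where chance alone gives about 2.1, or 1 in 20. Ece1 was highest in sham replicate 5 (ratio 0.714), at 17.4 FPKM against 10.9 to 12.5 in the other sham mice. Agtr2 and Agtr1b were highest in nAAC replicate 4 (ratio 1.0 for each), as the other 4 nAAC mice were listed at 0 for both, and replicate 4 was at 0.0326 and 0.0179 FPKM. No explanation was tested for any of them.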

How the results depend on the processing

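Ace, Edn1, Edn3 and Agtr1a, and outside the 10 genes Rgs2, Dpp3 and Grk5, kept their direction and their call in all 21 alternatives of each. Of 410 values of named genes under alternatives, 357 kept direction and call, 42 lost the call, 6 gained it and 5 changed sign, all 5 in genes that were not called. These were Cma1 at -0.20 with Xist as a covariate, Ece1 at -0.071, Agtr1b at -0.032 and Edn2 at -0.209 after correction for GC content and length, and Agtr1b at 0.0 without nAAC replicate 4 (0.0 to 0.006 over the fits that left out a mouse). The number of members that rose was 7 in place of 4 with TPM, in which the median log2 FC of all genes was 0.39. Those gained were Ednra, Ednrb and Ece1. The number of member DEGs was 4 in place of 2 with a pseudocount of 0.1. Of all genes tested, 701 were DEGs, or 1075 with TPM and 1121 with a pseudocount of 0.1; 3757 were called, or 1983 with Xist as a covariate and 2132 at an adjusted p below 0.01. Of the called genes 85.5% were higher in nAAC mice, or 52.2% after median-ratio scaling, 54.4% after upper-quartile scaling and 46.9% after correction for GC content and length. The cause of these shifts was not tested, except that a smaller pseudocount and a stricter p act by construction.

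Leaving out each mouse gave 2899 to 4551 called genes, 662 to 784 DEGs, 3 to 5 members that rose, 1 that fell and 2 DEGs. The difference in the ratio of Ednra to Ednrb was -0.309 to 0.017 (0.017 without nAAC replicate 1, where the sign changed), and that of Agtr1a to Agtr2 -0.52 to -0.33, with p above 0.05 in 7 of 10 fits. The ratio of Agtr1a to Agtr2 differed by 0.68 with 0.01 added, as Agtr2 is near 0. The same-numbered mice did not deviate together (correlations from -0.32 to 0.19 over 5 pairs). With the replicate block the number of called genes was 3426 and of DEGs 704, 4 members rose and 1 fell, and the call of no member changed. In the exact sign-flip test of the 5 pairs the ratio of Agtr1a to Agtr2 differed by -0.408 (p = 0.19), where 0.062 is the smallest p possible. Beside that ratio and Mme, the block ended the calls of Agtrap and Ece2 (adjusted p = 0.0674 and 0.06 in limma). The depth, known only as an estimate, limits what can be said of Agtr2, Agtr1b, Edn2 and Mas1.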
